A study of Mus musculus with 6 samples.

Results

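The genes described here are 9 genes of retinoic acid metabolism and signalling, Dhrs3, Rdh10, Aldh1a2, Cyp26a1, Cyp26b1, Rarb, Crabp1, Crabp2 and Stra6, out of 19920 genes measured. Dhrs3 was selected on its difference between the genotypes in these same values, since it was low on the arrays labelled knockout, and the synthesis, breakdown, binding and receptor genes around it were added; each had 1 probe set with a single gene symbol, and all 9 were measured. The difference between the groups had been seen when they were picked, so it is given for them as a description, with no test. The tissue came from mouse embryos of day 11.5 and was the cervical part of the spinal cord, dissected so that neither the floor plate nor the dorsal cord was included. The genotype label read Nkx2.9 knockout for 3 arrays and wild type for 3, and each group was lettered A, B and C. Nkx2-9 is a homeodomain factor of the ventral neural tube, and the series asked which genes act downstream of it in spinal accessory motor neurons. The labels give no allele design, no strain and no statement on whether an array came from 1 embryo or a pool, so the spread between arrays may be partly technical.

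Retinoic acid is made from vitamin A. Retinol bound to its carrier protein is taken up through Stra6, oxidised to retinaldehyde by Rdh10 and then to retinoic acid by Aldh1a2, while Dhrs3 reduces retinaldehyde back to retinol and the Cyp26 enzymes break retinoic acid down. Crabp1 and Crabp2 bind it in the cytoplasm, and in the nucleus it acts through heterodimers of RAR and RXR receptors, of which Rarb is one whose own transcription rises with the ligand. In the developing cord retinoic acid comes mainly from the mesoderm beside the neural tube, later also from meninges and from motor neurons at limb levels that express Aldh1a2, and it takes part in neuronal differentiation, dorsoventral patterning and the assignment of Hox identity.

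Promoters are shown first, because Rarb and Cyp26a1 carry the best known retinoic acid response elements and so give a direct sequence view of the pathway. Each line gives the 250 bases upstream of an annotated start, 5′ to 3′ on the strand of the gene, from RefSeq on GRCm38.p6: chr14:16575477-16575726 (minus strand) for Rarb, chr19:37697558-37697807 (plus strand) for Cyp26a1 and chr4:144892577-144892826 (plus strand) for the most upstream start of Dhrs3. Capitals mark a direct repeat with a spacer of 5 bases, named DR5, of which the core hexamer is AGGTCA in its consensus form. The variant AGTTCA was accepted at either place in the repeat, as was GGGTCA in the same way and, last, GGTTCA; both strands were searched.
Rarb: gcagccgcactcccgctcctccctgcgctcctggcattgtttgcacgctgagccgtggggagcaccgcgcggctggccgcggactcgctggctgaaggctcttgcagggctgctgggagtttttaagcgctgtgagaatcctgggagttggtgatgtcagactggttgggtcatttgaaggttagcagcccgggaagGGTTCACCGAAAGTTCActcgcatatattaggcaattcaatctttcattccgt
Cyp26a1: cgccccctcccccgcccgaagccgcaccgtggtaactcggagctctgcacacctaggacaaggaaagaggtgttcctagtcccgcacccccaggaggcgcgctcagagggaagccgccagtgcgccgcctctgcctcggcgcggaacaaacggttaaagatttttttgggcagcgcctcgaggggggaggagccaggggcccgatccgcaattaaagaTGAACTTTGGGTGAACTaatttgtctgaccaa
Dhrs3: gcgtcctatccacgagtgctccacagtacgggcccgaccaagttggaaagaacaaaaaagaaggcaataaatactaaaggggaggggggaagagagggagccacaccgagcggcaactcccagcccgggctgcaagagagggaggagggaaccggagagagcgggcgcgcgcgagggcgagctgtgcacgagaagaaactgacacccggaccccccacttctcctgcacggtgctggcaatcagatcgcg

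In Rarb the element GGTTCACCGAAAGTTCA lay at -53 to -37 from the start (chr14:16575513-16575529). In Cyp26a1 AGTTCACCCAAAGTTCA lay on the opposite strand at -32 to -16 (chr19:37697776-37697792). A promoter window of 300 bases, 250 before and 50 after a start, was found for 7 of the 9 genes. The DR5 letters were present in a window of these 2 genes and in none of the windows of the other 5 (Dhrs3, Aldh1a2, Cyp26b1, Crabp1 and Stra6). Over all genes with a window, 31 of 27025 (0.115%) held the DR5. Direct repeats of the same hexamers with spacers of 1 or 2 bases (DR1 and DR2) were in no window of the 7 genes, against 0.263% and 0.311% of all genes. A single hexamer, which overlaps every repeat, was in a window of Rarb, Cyp26a1 and Stra6, against 46.9% of all genes. Such a match is only a run of letters in this window and is no measure of binding, and Dhrs3 had 3 annotated starts, of which 1 is shown.

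Each value on these arrays was a log2 expression value from which the median of the probe set over the 6 arrays had been subtracted. Differences between arrays could therefore be measured, but neither the level of a gene nor its signal over background, so the tissue could not be checked against its defining markers. No probe set of 28815 passed an adjusted p of 0.05 in limma, and 1605 (5.57%) had an unadjusted p under 0.05. The second count was 2871 when knockout-labelled array B was dropped and 977 when wild-type B was, and 5 probe sets passed the adjusted threshold when knockout-labelled A was dropped. Nkx2-9 itself was not low on the arrays labelled knockout, at a difference of 0.18 (SE 0.11), and where its probes lie relative to the deleted part was not known. The arrays labelled knockout B and C stood at 4.56 and 4.91 for Xist, the X-inactivation RNA, and the other 4 between -0.25 and 0.11. No wild-type array was thus high in Xist. On knockout-labelled B and C, what goes with high Xist, such as sex, cannot be told apart from the genotype label. Mesenchyme and meninges markers had a median of 0.85 on knockout-labelled array C, where the other arrays lay between -0.08 and 0.16, with 14 of 16 highest on that array, against 27.4% of all genes. For endothelial markers 9 of 10 were highest there. Wild-type B alone had a high Hoxc8, 3.56, where the other arrays lay between -0.47 and 0.27.

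Dhrs3, the retinaldehyde reductase, was the only one of the 9 genes that was lower on every array labelled knockout than on every wild-type array. It stood at -0.65, -0.25 and -0.32 on knockout-labelled arrays A, B and C, compared with 0.54, 0.25 and 0.53 on wild-type arrays A, B and C. The groups did not overlap, and the nearest arrays were knockout B and wild-type B. The mean was -0.41 ± 0.21 against 0.44 ± 0.16 (SD, n = 3 each), a difference of -0.85 on the log2 scale (SE 0.13), or 1.80-fold lower. Over all complete probe sets, 4.25% were lower without overlap in this way. Leaving out any 1 array moved the difference to between -0.94 (wild-type B dropped) and -0.73 (knockout-labelled A dropped). A term for the high-Xist arrays takes up both B and C of the arrays labelled knockout, so the value with that term, -1.09, is array A alone, the lowest for Dhrs3, minus the wild-type mean. Some lists of cell type markers also had median differences away from 0, in part through single arrays. Of 10 markers of differentiated neurons 9 were lower on the arrays labelled knockout (median difference -0.14), 3 of them without overlap, against 44.9% of all genes lower and 11.2% without overlap. All 11 cell cycle genes measured were higher (median 0.33), as were all 5 blood genes (median 0.30), against 55.1% of all genes. None of either list was without overlap, against 11.2% of all genes. The blood median was -0.41 and -0.67 on wild-type A and B but 0.20 on wild-type C. The cell cycle median was -0.09, -0.55 and 0.04 on these arrays. Over the 6 arrays Dhrs3 had r = 0.52 with the median of the neuronal markers, -0.50 with that of the cell cycle genes and 0.51 with dorsal cord. It had -0.43 with blood, -0.41 with floor plate, -0.32 with mesenchyme, -0.27 with neural progenitors and -0.23 with endothelium. For motor neurons r was -0.05 and for dorsal root ganglion and neural crest 0.04. These were all the cell type lists. Their part in the difference of Dhrs3 was not tested. Its range over the arrays, 1.19, was larger than that of 99.1% of genes.

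**Figure D1:**
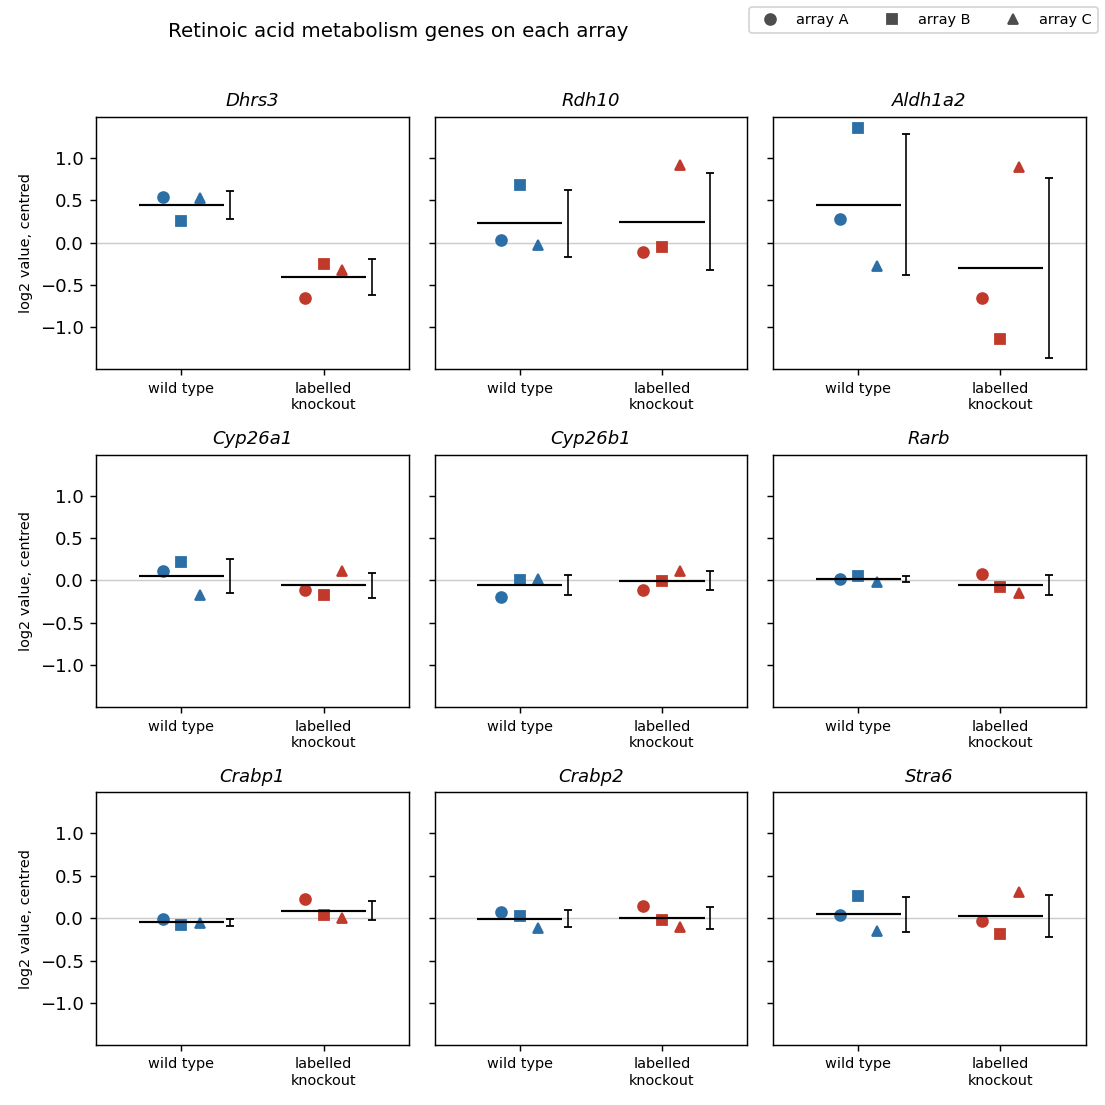
Centred log2 value of each of the 9 genes on each array (circle, square and triangle for arrays A, B and C; blue wild type, red labelled knockout), with the group mean as a line and the SD as a bar beside it. Dhrs3 separates the groups with a gap, Aldh1a2 and Rdh10 spread widely within both groups, and the other 6 genes lie between -0.19 and 0.31.

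The synthesis genes did not separate the groups, and their SDs within a group were larger than the difference between groups. Aldh1a2, which makes retinoic acid, stood at -0.65, -1.13 and 0.89 on knockout-labelled arrays A, B and C, compared with 0.28, 1.35 and -0.28 on wild-type arrays A, B and C. The array labelled knockout C lay above wild-type A and C, and wild-type B was the highest of all. The difference was -0.75 (SE 0.62), with SDs of 1.06 and 0.83. Dropping knockout-labelled array C gave -1.34 and dropping wild-type C gave -1.11. Dropping knockout-labelled array B gave -0.33, and dropping wild-type B gave -0.30. A range of 2.48 over the arrays was larger than that of 99.9% of genes.

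Rdh10, the retinol dehydrogenase that feeds Aldh1a2, stood at -0.11, -0.06 and 0.91 on knockout-labelled arrays A, B and C, compared with 0.03, 0.68 and -0.03 on wild-type arrays A, B and C. The same 2 arrays, labelled knockout C and wild-type B, were high, and the other 4 lay close together. The difference of 0.02 (SE 0.32) changed sign with the array left out, from -0.31 when knockout-labelled C was dropped to 0.25 when wild-type B was. It was also below 0 with quantile normalization (-0.07), with array weights (-0.09) and for knockout-labelled array A alone minus the wild-type mean (-0.34).

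Stra6, the receptor for the retinol carrier, was high on the same 2 arrays, on a smaller scale. It stood at -0.04, -0.18 and 0.31 on knockout-labelled arrays A, B and C, compared with 0.04, 0.26 and -0.16 on wild-type arrays A, B and C. The difference was -0.02 (SE 0.15), and it lay between -0.15 (knockout-labelled C dropped) and 0.09 (wild-type B dropped).

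**Figure D2:**
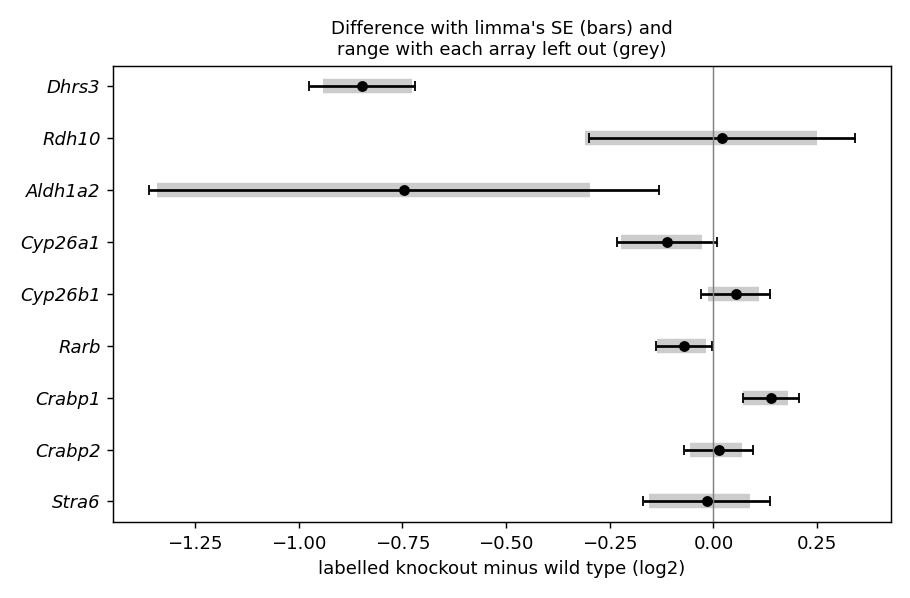
Difference between the arrays labelled knockout and wild type for each gene (points, log2 scale), with limma's SE as bars and the range over the 6 fits that each left out 1 array in grey. Dhrs3 stays between -0.94 and -0.73, while Aldh1a2 spans -1.34 to -0.30 and Rdh10 crosses 0.

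The breakdown genes showed small differences. Cyp26a1, the oxidase whose promoter holds the DR5, stood at -0.11, -0.18 and 0.11 on knockout-labelled arrays A, B and C, compared with 0.11, 0.22 and -0.17 on wild-type arrays A, B and C. The groups overlapped, and the difference was -0.11 (SE 0.12). It moved to -0.22 when wild-type C was dropped and to -0.03 when wild-type B was. Cyp26b1, a second oxidase of the family, stood at -0.11, -0.0022 and 0.11 against -0.19, 0.0022 and 0.02, in the same order of arrays, a difference of 0.05 (SE 0.08) that turned to -0.01 with 1 array left out. Cyp26b1 and Cyp26a1 did not follow each other over the arrays (Pearson r = -0.0028, n = 6).

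The receptor gene Rarb, whose promoter carries the other DR5, varied little. It stood at 0.08, -0.08 and -0.15 on knockout-labelled arrays A, B and C, compared with 0.01, 0.06 and -0.01 on wild-type arrays A, B and C. The array labelled knockout A was the highest of the 6 and C the lowest, so the groups overlapped. The difference was -0.07 (SE 0.07), between -0.14 and -0.02 with single arrays left out, and 0.06 for knockout-labelled array A alone minus the wild-type mean. Its range of 0.23 was close to the median range of all genes, 0.24.

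Of the cytoplasmic binding proteins, Crabp1 was higher on every array labelled knockout than on every wild-type array, by a narrow gap. It stood at 0.22, 0.04 and 0.0045 on knockout-labelled arrays A, B and C, compared with -0.0045, -0.08 and -0.06 on wild-type arrays A, B and C. The array labelled knockout C and wild-type A were separated by less than the SD of either group. The difference was 0.14 (SE 0.07, 1.10-fold), and it was 0.07 without the array labelled knockout A and 0.27 for that array alone minus the wild-type mean. Such a separation upward was found in 6.68% of all complete probe sets. Crabp2, its close relative, stood at 0.15, -0.02 and -0.11 on knockout-labelled arrays A, B and C, compared with 0.08, 0.02 and -0.12 on wild-type arrays A, B and C. Its groups overlapped fully, with a difference of 0.01 (SE 0.08), between -0.06 and 0.07 with single arrays left out. In both groups array A was the highest for Crabp2 and array C the lowest.

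Counted together, 5 of the 9 genes were lower on the arrays labelled knockout, with a median difference of -0.02, against 44.9% of all genes lower and a median of 0.01. The count moved between 4 and 7 as single arrays were left out, because Rdh10, Cyp26b1, Crabp2 and Stra6 lay near 0 and changed sign. Non-overlap in either direction was seen in 2 of 9, with 10.9% over all complete probe sets. The difference had a part in the choice of these genes, so nothing is read from either count.

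Aldh1a2, Stra6, Cyp26a1 and Rdh10 went up and down together over the arrays, whatever the genotype label. Pearson's r over the 6 arrays was 0.93 for Aldh1a2 and Cyp26a1 (Spearman's rho 0.89), 0.91 for Aldh1a2 and Stra6 (rho 0.89), 0.93 for Rdh10 and Stra6 (rho 0.83), 0.90 for Cyp26a1 and Stra6 (rho 0.83) and 0.86 for Rdh10 and Aldh1a2 (rho 0.89). These were the 5 pairs above 0.8 among 36 pairs of the 9 genes, of which 19 were below 0, and Rdh10 and Cyp26a1 followed at 0.76. Within the groups, after each group mean was subtracted, Aldh1a2 and Stra6 had r = 0.99 and Aldh1a2 and Rdh10 0.96. Without the 2 arrays farthest from the median of Rdh10, labelled knockout C and wild-type B, r of Rdh10 and Stra6 was 0.36 and that of Rdh10 and Aldh1a2 0.76. The first therefore rested on those arrays. Without the 2 arrays farthest for Aldh1a2, wild-type B and labelled knockout B, r was 0.86 with Stra6 and 0.84 with Cyp26a1. The arrays share their RNA between genes, so these values are descriptions of 6 arrays and carry no p.

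The genes whose pattern was most like that of Aldh1a2, among the 336 others with a range of at least 1, were Foxp1 (r = 0.97), Igf2 (0.90) and Crp (0.88). Foxp1 encodes a forkhead factor that marks motor neurons of the lateral motor column at limb levels, Igf2 a growth factor abundant in mesenchyme and Crp the C-reactive protein. Foxp1 stood at -0.13, -0.39 and 0.43 on knockout-labelled arrays A, B and C, compared with 0.13, 0.80 and -0.20 on wild-type arrays A, B and C, the same arrays being high and low as for Aldh1a2 except that knockout-labelled A and wild-type C changed places. For Rdh10 the genes were Anxa6 (0.98), Igf2 (0.98) and Lum (0.97). Lum, a proteoglycan of connective tissue, stood at 3.31 on knockout-labelled array C and 1.66 on wild-type B, with the other 4 from -0.22 to 0.02. The retinoid oxidising enzyme Cyp1b1, picked after its values were seen, was likewise at 1.70 on knockout-labelled array C and 0.36 on wild-type B, with the rest from -0.10 to 0.00.

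**Figure D3:**
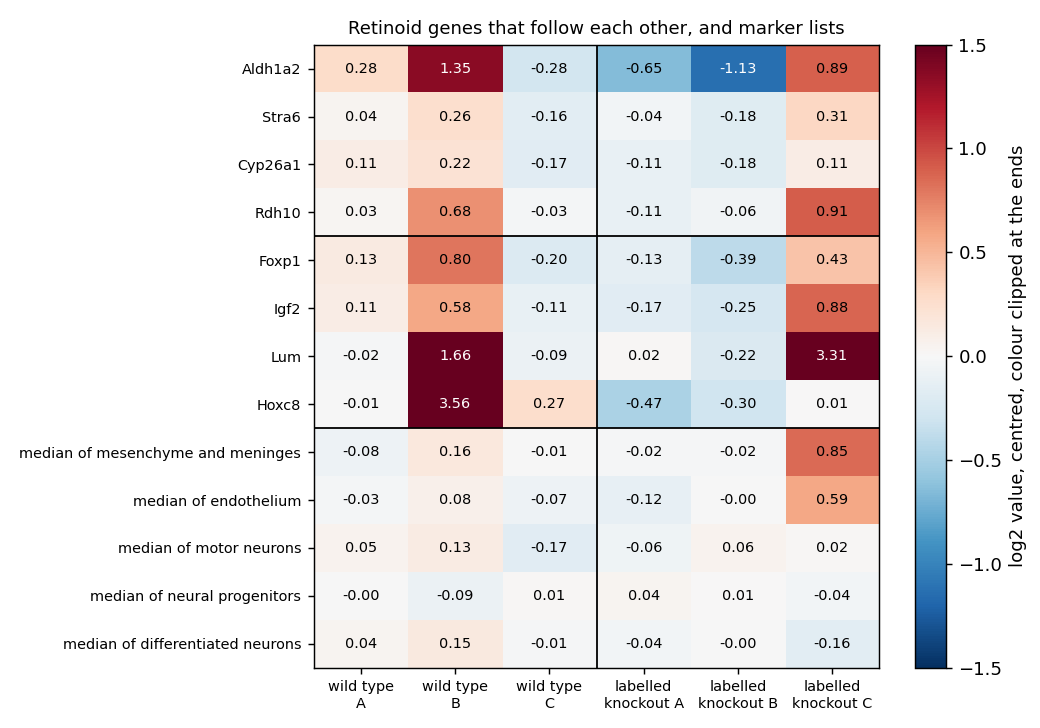
Centred log2 values on each array for the 4 retinoid genes that followed each other (top), for Foxp1, Igf2, Lum and Hoxc8 (middle) and for the median of 5 marker lists (bottom); the colour scale is clipped at both ends and the numbers give the values. Wild-type B and the array labelled knockout C are high in the top block, though for Cyp26a1 wild-type A is as high as knockout C (both 0.11). The mesenchyme and endothelium medians are high on knockout C.

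Both arrays that were high in these genes were also raised in mesenchyme and endothelial markers. On the array labelled knockout C the mesenchyme and meninges median was 0.85 and the endothelial median 0.59. Wild-type B came second for both lists, at 0.16 and 0.08. In 12 of 16 mesenchyme and 6 of 10 endothelial markers knockout-labelled C was highest and wild-type B second, against 5.24% of all genes. On wild-type B Foxc2 was at 1.21, Twist1 at 0.86 and Postn at 0.50, and on knockout-labelled C at 3.01, 2.32 and 1.92. All 3, picked after their values were seen, are mesenchymal genes. Others of the list went the other way: Dcn was at -2.02 on wild-type B and -0.24 on knockout-labelled C, and Sox9 at -0.01 and -0.13. Col1a1 hardly moved, at 0.01 and 0.03. On wild-type B the differentiated neuron median was 0.15 and the motor neuron median 0.13, the highest of the 6 arrays for both lists, with 8 of 10 neuronal and 4 of 9 motor neuron markers highest there, against 18.7% of all genes. On knockout-labelled C the neuronal median was the lowest, at -0.16. Over the arrays r with the mesenchyme median was 0.86 for Rdh10, 0.74 for Stra6, 0.55 for Aldh1a2 and 0.42 for Cyp26a1. In the same order of genes it was 0.46, 0.53, 0.44 and 0.68 with the motor neuron median. With the neural progenitor median it was negative for each gene, at -0.84, -0.80, -0.87 and -0.83. The floor plate median likewise gave -0.59, -0.68, -0.87 and -0.74. For Aldh1a2 and Cyp26a1 these negative values were larger in size than those with mesenchyme. The part of cell makeup or level of the cut in these values was not tested, and in whole tissue fewer cells of a type and less RNA per cell cannot be told apart.

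Dhrs3 was set beside Hoxb9, Hoxa6 and Hoxc6, posterior Hox genes that were also low on the arrays labelled knockout. The differences were -0.99 (SE 0.12) for Hoxb9, -0.92 (SE 0.16) for Hoxa6 and -1.29 (SE 0.27) for Hoxc6, each without overlap between the groups. Over the 6 arrays r with Dhrs3 was 0.91 for Hoxb9 (rho 0.77), 0.89 for Hoxa6 (rho 0.83) and 0.73 for Hoxc6 (rho 0.66). All these genes had been picked as low in the same arrays, which by itself gives a high r. After each group mean was subtracted, r was 0.11 for Hoxb9, 0.24 for Hoxa6 and -0.64 for Hoxc6. The 2 groups differed in direction for Hoxb9 and Hoxa6. Over the 3 arrays labelled knockout r was 0.85 for Hoxb9, 0.77 for Hoxa6 and -0.32 for Hoxc6, and over the 3 wild-type arrays -0.97, -0.93 and -0.98; with 3 arrays each these only describe the order of the arrays. In the wild type Dhrs3 was lowest on array B, at 0.25, where all 3 Hox genes were highest, at 0.66 for Hoxb9, 0.56 for Hoxa6 and 1.44 for Hoxc6. Among the arrays labelled knockout, A was the lowest for Dhrs3, Hoxb9 (-0.71) and Hoxa6 (-0.78), while B was the lowest for Hoxc6 (-0.66). Without the 2 arrays farthest for Dhrs3, labelled knockout A and wild-type A, r over the remaining 4 was 0.86, 0.81 and 0.70. Those 4 still came from both groups, so the choice of the genes raised these values too.

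**Figure D4:**
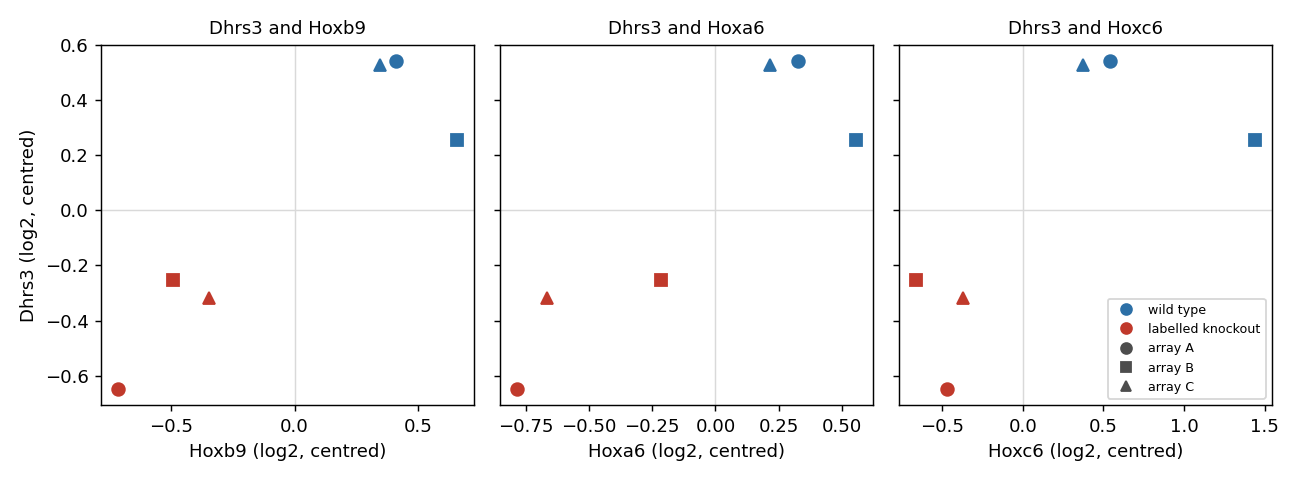
Dhrs3 against Hoxb9, Hoxa6 and Hoxc6 on each array (centred log2 values; blue wild type, red labelled knockout; circle, square and triangle for arrays A, B and C). The groups form separate clusters in each panel, and among the wild-type arrays Dhrs3 is lowest where the Hox genes are highest (B).

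Among the 336 other genes with a range of at least 1, those most like Dhrs3 were Hoxb9, Hoxa6, Lxn (r = 0.88), Dgkk (0.86), Slitrk2 (0.84) and Hoxd8 (0.84). Lxn encodes a carboxypeptidase inhibitor, Dgkk a diacylglycerol kinase and Slitrk2 a neuronal membrane protein. All 6 were lower on the arrays labelled knockout, by -0.75 to -1.19 on the log2 scale. Dhrs3 had been chosen as low on these arrays, so genes of high r with it are lower there by that choice. Within the groups r was between 0.11 and 0.44 for these genes, except for Lxn, at 0.72. Lxn stood at -1.22, -0.04 and -0.75 on knockout-labelled arrays A, B and C, compared with 0.04, 0.10 and 0.38 on wild-type arrays A, B and C. Of the other 8 retinoid genes only Rdh10 and Aldh1a2 had a range of at least 1, and neither was among these 6. Over all 8 the highest r with Dhrs3 was 0.33, for Aldh1a2, and Crabp1 ran opposite at -0.79. With the other retinoid genes, Crabp1 had r = -0.83 with Hoxb9 and Aldh1a2 0.70 with Hoxc6, of which the second was 0.02 with both B arrays dropped.

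The rest of the pathway was covered by a list of 54 names for other dehydrogenases, oxidases, carriers, receptors and cofactors, of which 49 were measured. None of the 49 passed an adjusted p of 0.05 in limma. At an unadjusted p under 0.05 there were 3, which is 6.12% beside 6.06% of all genes and 5.57% of all probe sets. The retinaldehyde reductase gene Rdh11 had lower values, at -0.11, -0.15 and -0.03 on knockout-labelled arrays A, B and C and 0.08, 0.15 and 0.03 on wild-type A, B and C (difference -0.18, SE 0.05). The heterodimer receptor gene Rxra had higher values, at 0.30, 0.03 and 0.09 against -0.03, -0.16 and -0.14 (difference 0.25, SE 0.08). The retinol-binding protein gene Rbp7 did too, at 0.10, 0.01 and 0.07 against -0.20, -0.01 and -0.14 (difference 0.18, SE 0.06). The groups did not overlap in these 3 genes and in no other of the list, 6.12% against 11.2% of all genes and 10.9% of complete probe sets, and each had adjusted p = 0.812 in limma. The unadjusted p of Rbp7, 0.023 in limma, was 0.069 without knockout-labelled array A, 0.054 without knockout-labelled C, 0.073 without wild-type A and 0.065 without wild-type C. That of Rxra, 0.022 in limma, was 0.066 when wild-type B was left out and 0.064 when C was. When knockout-labelled array B was dropped, 7 genes of the list had an unadjusted p under 0.05. Over all probe sets the count rose as well, from 1605 to 2871. The list had 35 genes higher (71.4%, against 55.1% of all genes) and 14 lower, with a median difference of 0.02 against 0.01 over all genes. Over the 6 arrays Dhrs3 had r = -0.81 with the median of this list, which itself stayed between -0.02 and 0.02. Dhrs3 had been chosen as low on the arrays labelled knockout, so this r is a description only.

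The core genes of the pathway outside the 9, apart from Rxra, had differences between -0.10 and 0.12. Among these other receptors, the difference was -0.10 (SE 0.10) for Rara, 0.01 (SE 0.04) for Rarg, 0.03 (SE 0.07) for Rxrb and 0.12 (SE 0.07) for Rxrg. Rara was lowest on knockout-labelled array C (-0.26), and its difference was 0.01 without that array. The other retinaldehyde dehydrogenase genes, Aldh1a1 and Aldh1a3, were at 0.05 (SE 0.12) and 0.01 (SE 0.06), the third oxidase gene Cyp26c1 at 0.04 (SE 0.06) and the carrier gene Rbp4 at 0.04 (SE 0.06). The signs of Rara, Rarg, Rxrb, Aldh1a1, Aldh1a3, Cyp26c1 and Rbp4 turned under at least 1 other setting.

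Genes known to respond to retinoic acid were compared last, from a list of 36, mainly Hox genes of paralog groups 1 to 5 and cofactors, of which 31 were measured. None passed an adjusted p of 0.05 in limma, and 1 had an unadjusted p under 0.05, which is 3.23% beside 6.06% of all genes and 5.57% of all probe sets. This was Foxa1, a forkhead factor that is also a floor plate gene, at 0.10, 0.05 and 0.04 on knockout-labelled arrays A, B and C and -0.14, -0.17 and -0.04 on wild-type A, B and C (difference 0.18, SE 0.05, adjusted p = 0.812). The floor plate list had a median difference of 0.14, with 6 of 9 higher against 55.1% of all genes. Of the 9, 3 had an unadjusted p under 0.05 in limma, Foxa1 among them, against 6.06% of all genes. These 3 were also higher without overlap, against 6.68% of all complete probe sets. The part of the floor plate in the value of Foxa1 was not tested. In the responsive list 18 genes were higher and 13 lower, with a median of 0.03. Hoxb1, whose early expression depends on retinoic acid, was at -0.21 (SE 0.10), Hoxa5 at -0.17 (SE 0.09), Hoxb4 at 0.20 (SE 0.12) and Hoxb5 at 0.17 (SE 0.16), all picked after their values were seen. The Hox genes of the list thus had differences on both sides of 0. The count at an unadjusted p under 0.05 was 5 when knockout-labelled array C was dropped, 3 each when knockout-labelled B or wild-type A was, and 2 when wild-type C was.

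**Figure D5:**
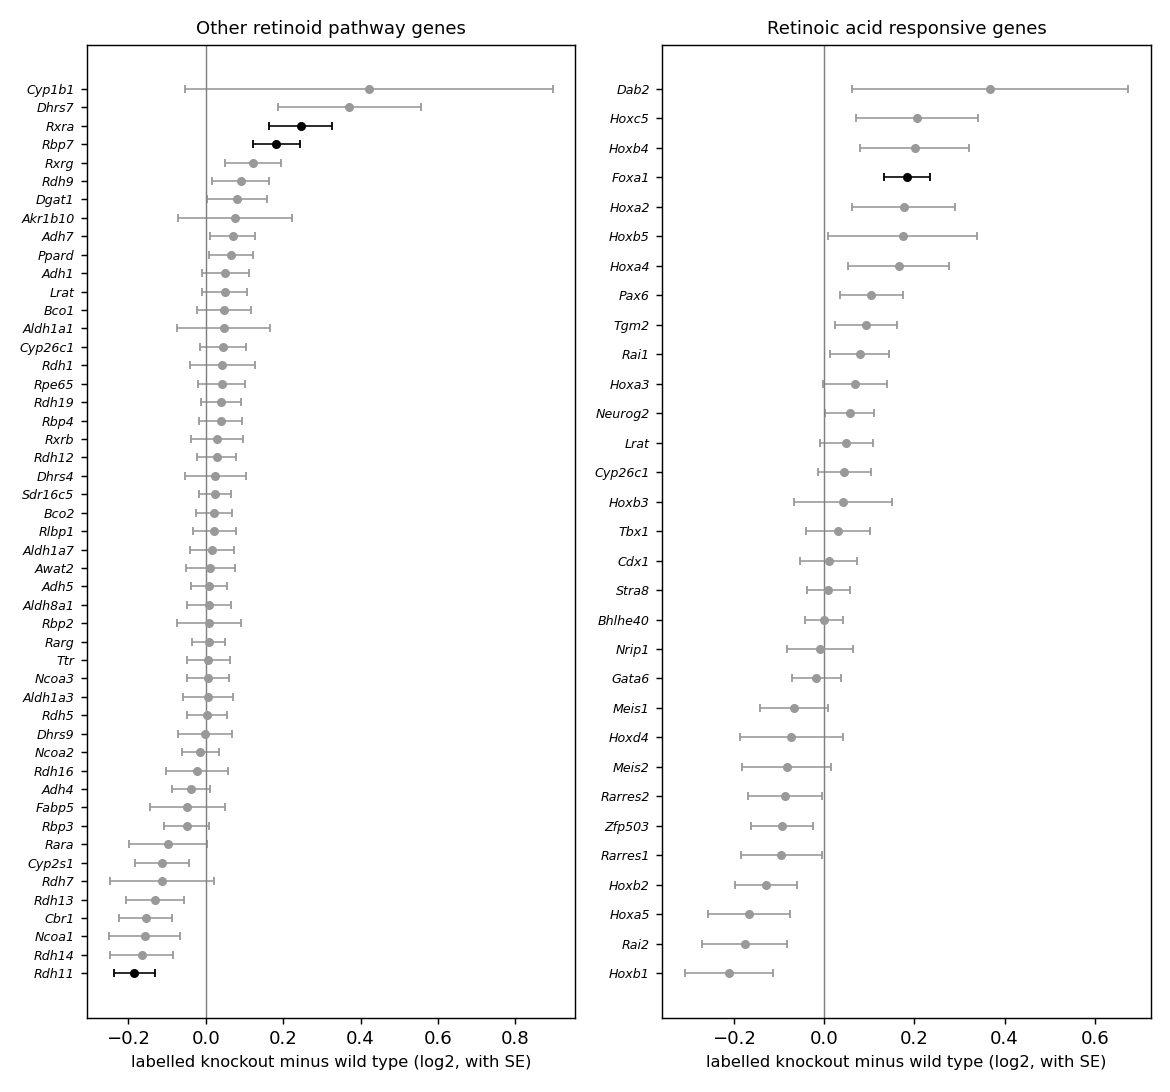
Difference between the arrays labelled knockout and wild type (log2 scale, bars are limma's SE) for the 49 other retinoid pathway genes and the 31 responsive genes measured; black points had an unadjusted p under 0.05. The black points are Rdh11, Rxra and Rbp7 on the left and Foxa1 on the right.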

How the data were processed

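The deposited values were log2 expression values. The authors obtained them by RMA, robust multi-array averaging of background-corrected and normalized probes, per the submitters' processing notes. For its version, settings and genome build nothing is stated (not given in the sources used here), and base 2 is assumed for the logarithm. In 28791 complete probe sets of 28815 the median over the 6 arrays was 0 within 1e-06, so each had been centred. That leaves differences between arrays intact and hides levels and background. No columns of other samples were present. No pair of arrays was identical.

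Symbols came from the platform annotation: 21780 probe sets had 1 symbol, 1605 several and 5430 none. For each gene the complete probe set with the most accessions was used; a few listed genes were not analysed here. Groups were compared with limma 3.58.1 in R 4.3.3 (lmFit, eBayes, genotype as the only term) on the whole table, with Benjamini-Hochberg adjustment; SEs are limma's. The fit was tested on simulated data. Precision was limited by 3 arrays per group. Named were the 9 members, the core pathway genes, listed genes with unadjusted p under 0.05, and the genes of highest Pearson r (6 for Dhrs3, 3 for other members with a range of at least 1), without predicted genes or clone names. The members and lists were chosen with earlier results of these data known. Promoters were RefSeq's (GRCm38.p6). Figures were drawn with matplotlib 3.10.9.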

Additional observations from a re-analysis of the deposited data

How the results depend on the processing

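Dhrs3 was lower on the arrays labelled knockout under each alternative that kept at least 2 arrays a group, from -0.94 to -0.73 with single arrays left out. The Xist term takes up knockout-labelled B and C, so its values are array A alone minus the wild-type mean and are no check on the group: -1.09 for Dhrs3, 0.060 for Rarb, 0.27 for Crabp1 and 0.15 for Crabp2. The other ranges with single arrays left out were -0.31 to 0.25 for Rdh10, -1.34 to -0.30 for Aldh1a2, -0.22 to -0.03 for Cyp26a1, -0.01 to 0.11 for Cyp26b1, -0.14 to -0.02 for Rarb, 0.07 to 0.18 for Crabp1, -0.06 to 0.07 for Crabp2 and -0.15 to 0.09 for Stra6. Genes of the pathway list at an unadjusted p under 0.05 in limma numbered 2 to 7 with single arrays left out (7 without the array labelled knockout B), and responsive genes 1 to 5 (5 without the array labelled knockout C, 2 with array weights, 3 with the Xist term). Over all probe sets 977 (without wild-type B) to 2871 (without the array labelled knockout B) had an unadjusted p under 0.05, and 0 to 5 passed the adjusted threshold (5 without the array labelled knockout A). With quantile normalization Aldh1a1 turned to -0.0073 and Aldh1a3 to -0.0028, and with array weights Aldh1a3 to -0.0054. With the Xist term Rara turned to 0.075, Rxrb to -0.012, Aldh1a3 to -0.090 and Cyp26c1 to -0.053. With single arrays left out the ranges were -0.18 to 0.0074 for Rara, -0.0081 to 0.030 for Rarg, -0.015 to 0.093 for Rxrb, -0.054 to 0.16 for Aldh1a1, -0.042 to 0.055 for Aldh1a3 and -0.0045 to 0.077 for Rbp4.

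The letters A, B and C are not said to pair arrays, and the deviations of arrays with the same letter correlated at 0.16, 0.22 and 0.02. Between arrays of different letters the correlation lay between -0.19 and 0.04, below the values for A and B. Whether the letters pair arrays was not settled by this. With the letter as a replicate block Dhrs3 stayed at -0.85 (SE 0.14), and Rbp7 had an unadjusted p of 0.0504 in limma (0.023 without the block). Over all probe sets 2552 had an unadjusted p under 0.05 in limma, against 1605 without the block. A filter on dim probe sets was not run, since centred values hold no level.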
